A study of Mus musculus with 18 samples.

Results

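The genes described here make, check and clear proteins of the endoplasmic reticulum (ER): chaperones, disulfide-forming enzymes, the machinery of ER-associated degradation, the translocon channel and the sensors of ER stress. The set was a list of 34 gene names, taken by name from 49845 gene names in each library, and all 34 were found. The libraries come from IMCD3, a line of kidney cells started from mouse inner medullary collecting duct. Its background is labelled Tg(SV40E)bri/7, a mouse carrying the early region of the SV40 virus, and all groups share it. There were 3 genotypes, wild type, Ift140 knockout and Dync2h1 knockout, at passage 10 to 15. Each was held for 3 h either static or under fluid shear stress of 0.7 dyne/cm2, with 3 libraries of total RNA in each of the 6 groups. Ift140 and Dync2h1 encode parts of the retrograde transport machinery of the primary cilium, the sensory projection of these cells. The labels do not say how the knockouts were made, whether each line was 1 clone, or whether replicates were separate cultures, so p-values measure only the spread between these samples, which may be technical.

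Secreted and membrane proteins enter the ER through the Sec61 channel and fold there with the help of the HSP70-type chaperone BiP (Hspa5), the HSP90-type chaperone GRP94 (Hsp90b1), the lectin chaperones and the protein disulfide isomerases. Chains that fail to fold are led back to the cytosol and destroyed by the proteasome, which is ER-associated degradation. When misfolded protein builds up, the sensors IRE1 (Ern1), ATF6 and PERK (Eif2ak3) signal to the nucleus: ATF6 and the spliced form of XBP1 raise chaperone and degradation genes, and PERK slows translation and raises ATF4. ATF6 acts with the factor NF-Y at the ER stress element, a CCAAT box followed at a fixed distance by CCACG.

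The sequences before the start sites are shown because a shared element in them is a well known feature of many of these genes. Of the 34 members, 29 had a start site window (250 bases before to 50 after the start) in the RefSeq table of build GRCm38.p6, 2 of them under a newer symbol (Ero1a for Ero1l, Ero1b for Ero1lb). Atf6, Derl1, Hyou1, Manf and Sec61a1 were not matched there. The 2 windows below, upstream bases only, are those of Hspa5 (chr2:34771840-34772089, plus strand), the most abundant member, and Herpud1 (chr8:94386179-94386428, plus strand), the member that rose in all 3 genotypes under flow. Capitals mark the fixed letters of the motif matches, 5′ to 3′ on the strand of the gene.
Hspa5: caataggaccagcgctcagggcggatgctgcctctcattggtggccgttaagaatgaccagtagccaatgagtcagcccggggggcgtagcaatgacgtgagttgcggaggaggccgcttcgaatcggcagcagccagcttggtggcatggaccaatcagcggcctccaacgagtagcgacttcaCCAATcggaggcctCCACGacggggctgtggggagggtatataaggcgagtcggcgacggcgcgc
Herpud1: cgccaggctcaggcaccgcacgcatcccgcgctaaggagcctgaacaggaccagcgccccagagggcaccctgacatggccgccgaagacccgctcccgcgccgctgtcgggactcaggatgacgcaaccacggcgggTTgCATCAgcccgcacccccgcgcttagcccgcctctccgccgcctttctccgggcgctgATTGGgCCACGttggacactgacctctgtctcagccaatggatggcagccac
In Hspa5 the capitals are the ER stress element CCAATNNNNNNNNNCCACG at positions -65 to -47 from the start. In Herpud1 they are, first, the ATF4 composite core TGATGNAA read on the other strand (-112 to -105) and, second, the shorter ER stress element II, ATTGGNCCACG (-52 to -42).

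The ER stress element, searched on both strands, was found in 10 of the 29 members with a window and in 37 of 27025 genes of the whole table (0.137%). The matches follow, as they read on the strand of each gene, so that CGTGG before ATTGG is the element on the opposite strand.
Hspa5: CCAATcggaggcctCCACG
Hsp90b1, distal: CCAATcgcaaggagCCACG
Hsp90b1, proximal: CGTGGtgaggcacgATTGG
Dnajc3: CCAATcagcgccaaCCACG
Creld2: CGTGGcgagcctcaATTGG
Calr: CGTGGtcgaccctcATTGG
Canx: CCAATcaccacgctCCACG
Pdia6: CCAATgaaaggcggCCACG
Ero1lb: CGTGGtcccgcctcATTGG
Syvn1: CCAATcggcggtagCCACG
Derl3: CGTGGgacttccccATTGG
The ER stress element II was found in Herpud1 and Dnajb11, and in 12 genes of the table (0.0444%). It shares the CCACG letters with the longer element, and neither member held both. The ATF4 composite core was in Herpud1 alone among the 29, against 4.51% of genes, and the XBP1 core TGACGTGG was in none of them, against 0.714%. A match is a stretch of letters and does not show that a factor binds there.

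**Figure D1:**
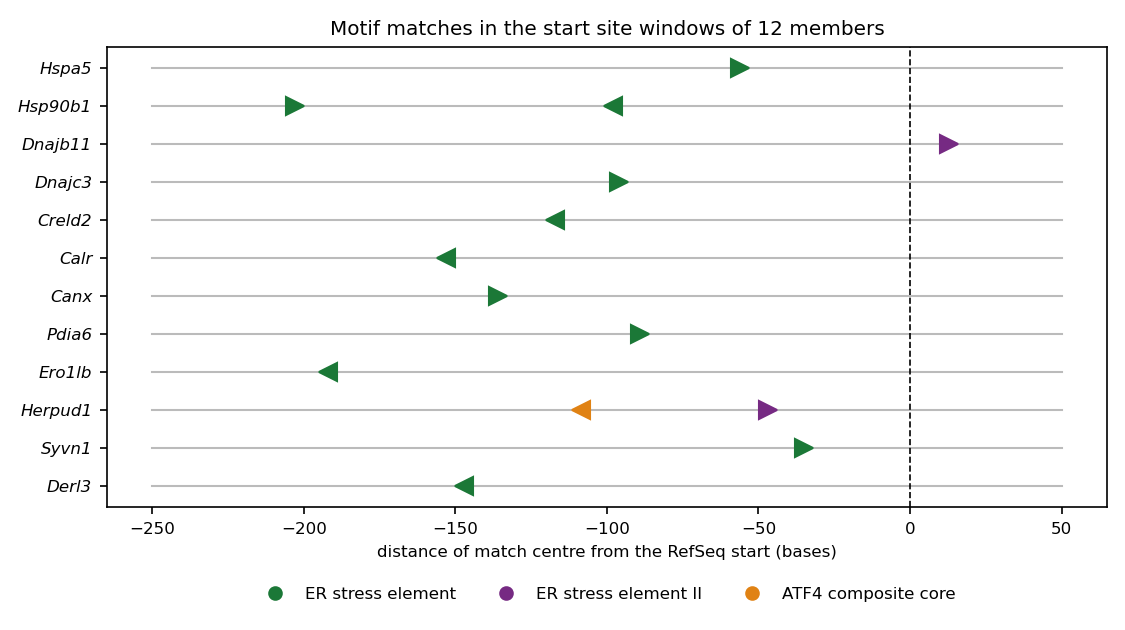
Position of each motif match in the start site windows of the 12 members with any match. The x axis is the distance in bases of the match centre from the RefSeq start, arrowheads point along the strand of the match, and grey lines span the window. The matches of 11 members lie upstream of the start, and that of Dnajb11 just after it.

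Values are TPM, a transcript abundance that is corrected for gene length and so can be compared between genes. They were rescaled between libraries and are called scaled TPM. TPM keeps no sequencing depth, so the depth behind each value is unknown. Changes are log2 differences of scaled TPM + 1 from limma, with standard errors (SE), and understate the change of low genes. A gene passed when its p, adjusted by Benjamini-Hochberg over all 16686 genes tested, was under 0.05, and all 34 members were among the genes tested. With 3 libraries a group the smallest p of an exact rank test is 0.1, and smaller p-values rest on the model. A lack of overlap between the libraries of 2 groups was common among all genes tested. From static to flow it held for 39.7% of genes in wild type, 26% in the Ift140 knockout and 41.2% in the Dync2h1 knockout. Against wild type it held for 38.3% (Ift140) and 47.6% (Dync2h1) of genes static, and for 26.4% and 46.9% under flow.

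Static wild-type libraries held 16.5, 19.4 and 18.8 TPM of Ift140 and the static libraries of its knockout 6.26, 6.39 and 7.31, a change of -1.33 (SE 0.18, adjusted p = 0.000111). Dync2h1 stood at 40.4, 45.2 and 33.9 and, in its static knockout, at 15.1, 9.63 and 15.5, a change of -1.52 (SE 0.20, adjusted p = 4.04e-05). Both transcripts were lower but not absent in the lines labelled as knockouts. The third Ift140 knockout flow library stood apart from the rest, with a correlation of 0.9619 with its group mates against 0.9675 to 0.9837 for the other libraries, and with Ift140 at 14.3 TPM against 7.62 and 8.66 in its group mates. Changes that rest on that group are given with and without it. The epithelial genes Krt8, Krt18, Krt19, Cdh1, Cdh16, Epcam and Hoxb7 were expressed in every library, whereas the principal cell genes Aqp2, Aqp3, Aqp4, Avpr2 and Scnn1a stayed under 1 TPM in all 18. Among leukocyte markers Cd3e was listed at 0 throughout, Ptprc was at most 1.78 TPM and Csf1r 5.73 to 13.5 TPM.

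The members spanned a wide range of levels. In static wild-type cells Hspa5 led with 1506 ± 49.4 TPM (SD, n = 3), followed by Hsp90b1 with 873 ± 22.9, the lectin chaperone gene Calr with 716 ± 9.51 and the disulfide isomerase gene P4hb with 690.1 ± 32.5. These 4 genes held 54.1% of the summed TPM of all members. The lowest were Dnajb9 with 6.62 ± 1.02, Ern1 with 6.10 ± 0.828 and Derl3 with 5.68 ± 0.620 TPM. Hspa5, Hsp90b1 and Calr did not overlap one another, whereas the lowest value of Calr, 705 TPM, lay below the highest of P4hb, 727 TPM, so that this last pair could not be ordered by its libraries. The lowest 3 genes overlapped as well. Derl3 was at or above 1 TPM in 17 libraries and every other member in all 18.

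Flow raised Herpud1 in every genotype and changed few other members. Hspa5 and Hsp90b1, the most abundant chaperones, passed in none of the flow comparisons. In wild-type cells 7 of the 34 members passed, against 19.4% of all genes tested (9.92% higher and 9.47% lower): Herpud1 rose, and Sdf2l1, Creld2, Calr, Pdia4, Derl3 and Eif2ak3 fell. In the Ift140 knockout 9 passed, against 16.2% of all genes (8.09% higher and 8.12% lower): Herpud1, Derl1, Sec61a1 and Ern1 rose, and Sdf2l1, Creld2, Sel1l, Edem2 and Eif2ak3 fell. In the Dync2h1 knockout 4 passed, against 18.2% of all genes (10.8% higher and 7.38% lower): Herpud1, Derl1 and Sec61a1 rose and Ero1lb fell. The shares of members that passed were 20.6%, 26.5% and 11.8%, set beside these background shares. The counts rest in part on single libraries: 4 passed in wild type without its first static library, 4 in the Ift140 knockout without the first or the third static library, and 2 in the Dync2h1 knockout without its first static or its first flow library. Fitted on its own groups alone, the Ift140 comparison called 1 member, Herpud1. With a minimum change of 0.5 it called 3, against 9.98% of all genes. The median change of the members was -0.099 in wild type, -0.122 in the Ift140 knockout and 0.061 in the Dync2h1 knockout, beside -0.008, -0.009 and 0.029 over all genes. The Dync2h1 median turned to -0.074 with the deposited scaling and -0.071 with quantile normalisation. The Ift140 median turned to 0.011 without the library that stood apart, and 6 members then passed, 3 in each direction.

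**Figure D2:**
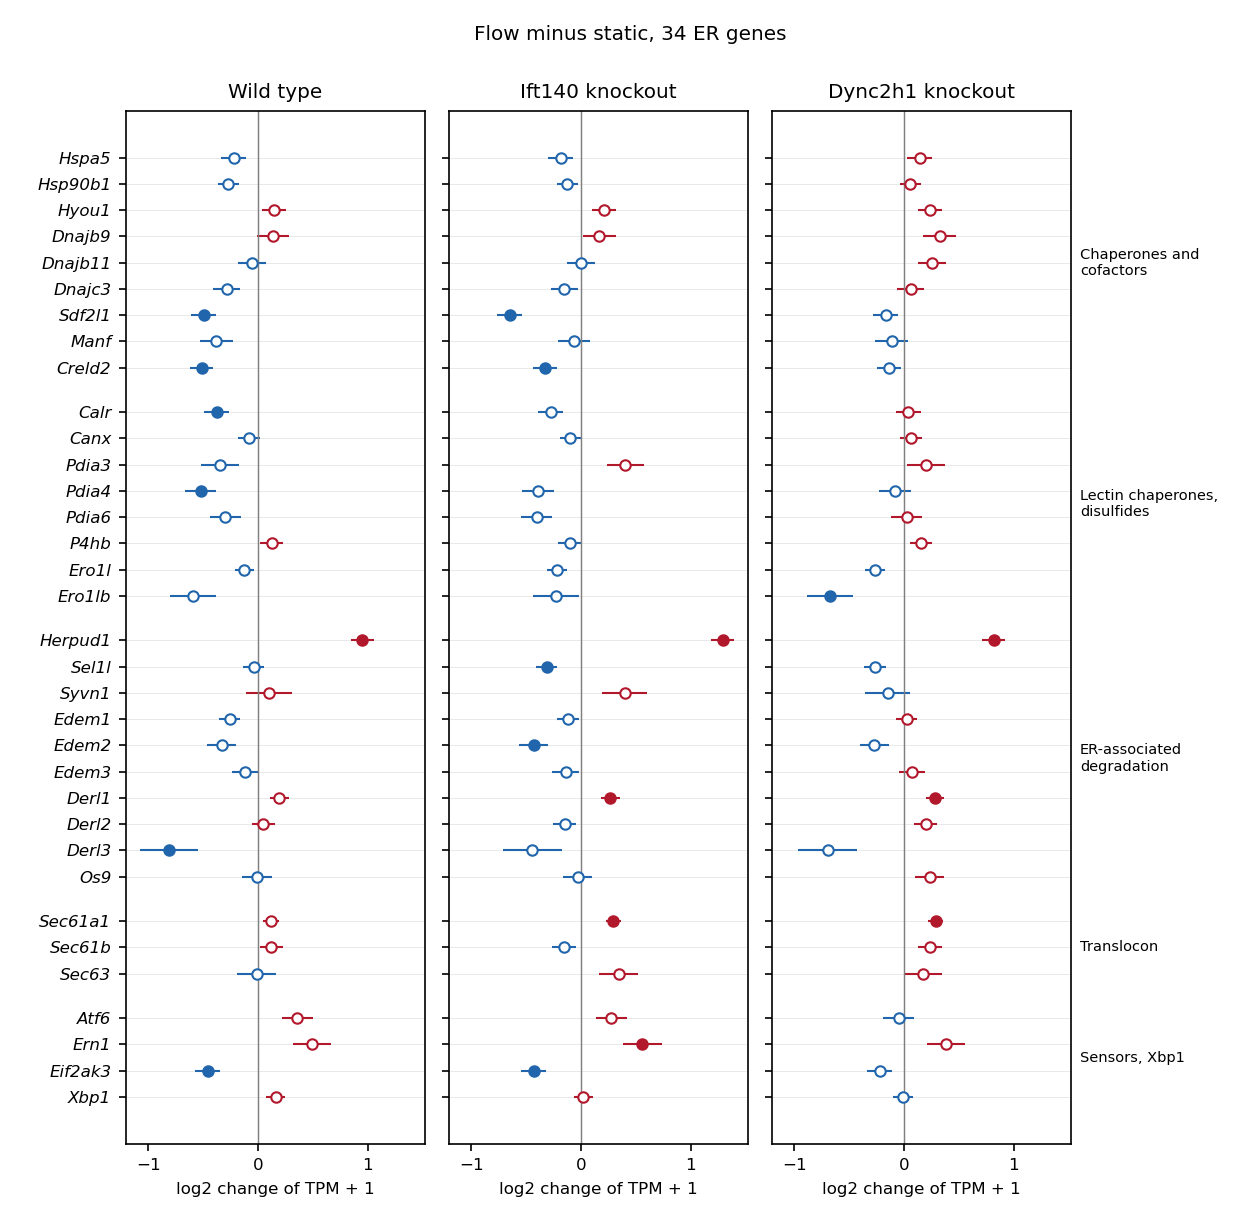
Change of each member under flow in the 3 genotypes. The x axis is the log2 change of scaled TPM + 1, flow minus static, bars are SE, filled points passed at an adjusted p under 0.05, and red and blue mark higher and lower under flow. Herpud1 stands to the right in every panel, at 0.95, 1.29 and 0.82, while Hspa5 did not pass in any.

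The Dync2h1 knockout differed from wild type far more widely, and most of the change was downward. In static culture 19 members passed (55.9%), 17 lower and 2 higher, against 26.2% of all genes (13.1% lower and 13.1% higher). Under flow 17 passed, 15 lower and 2 higher, against 29.2% of all genes (13.2% lower and 16% higher). The median change of the members was -0.443 static and -0.327 under flow, where the medians of all genes were 0.000 and 0.030. The falls in both conditions were 13 of 17 in static culture and 13 of 15 under flow, in comparisons with no library in common. Hspa5, Hsp90b1, Sdf2l1 and Pdia3 fell in static culture alone, and Sel1l and Atf6 under flow alone, although no test of the difference between the 2 conditions passed for any of them. Ero1l and Derl1 rose in both.

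The summed level of the 34 members showed the same in each library. It was 7071, 6868 and 7052 TPM in wild-type cells without flow and 4699, 4733 and 5037 TPM in the static Dync2h1 knockout, 68.9% of the wild-type mean. Under flow it was 6590.0, 5832 and 6224 TPM in wild type and 5091, 5159.8 and 5205 TPM in the Dync2h1 knockout. The libraries of the 2 genotypes did not overlap in either condition. The Ift140 knockout stood at 7442, 7036 and 7414 TPM static and at 7231, 7274 and 5723 TPM under flow, so that the library that stood apart was the lowest of the 6. Sums over bulk RNA do not tell less RNA per cell from fewer cells of a type.

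**Figure D3:**
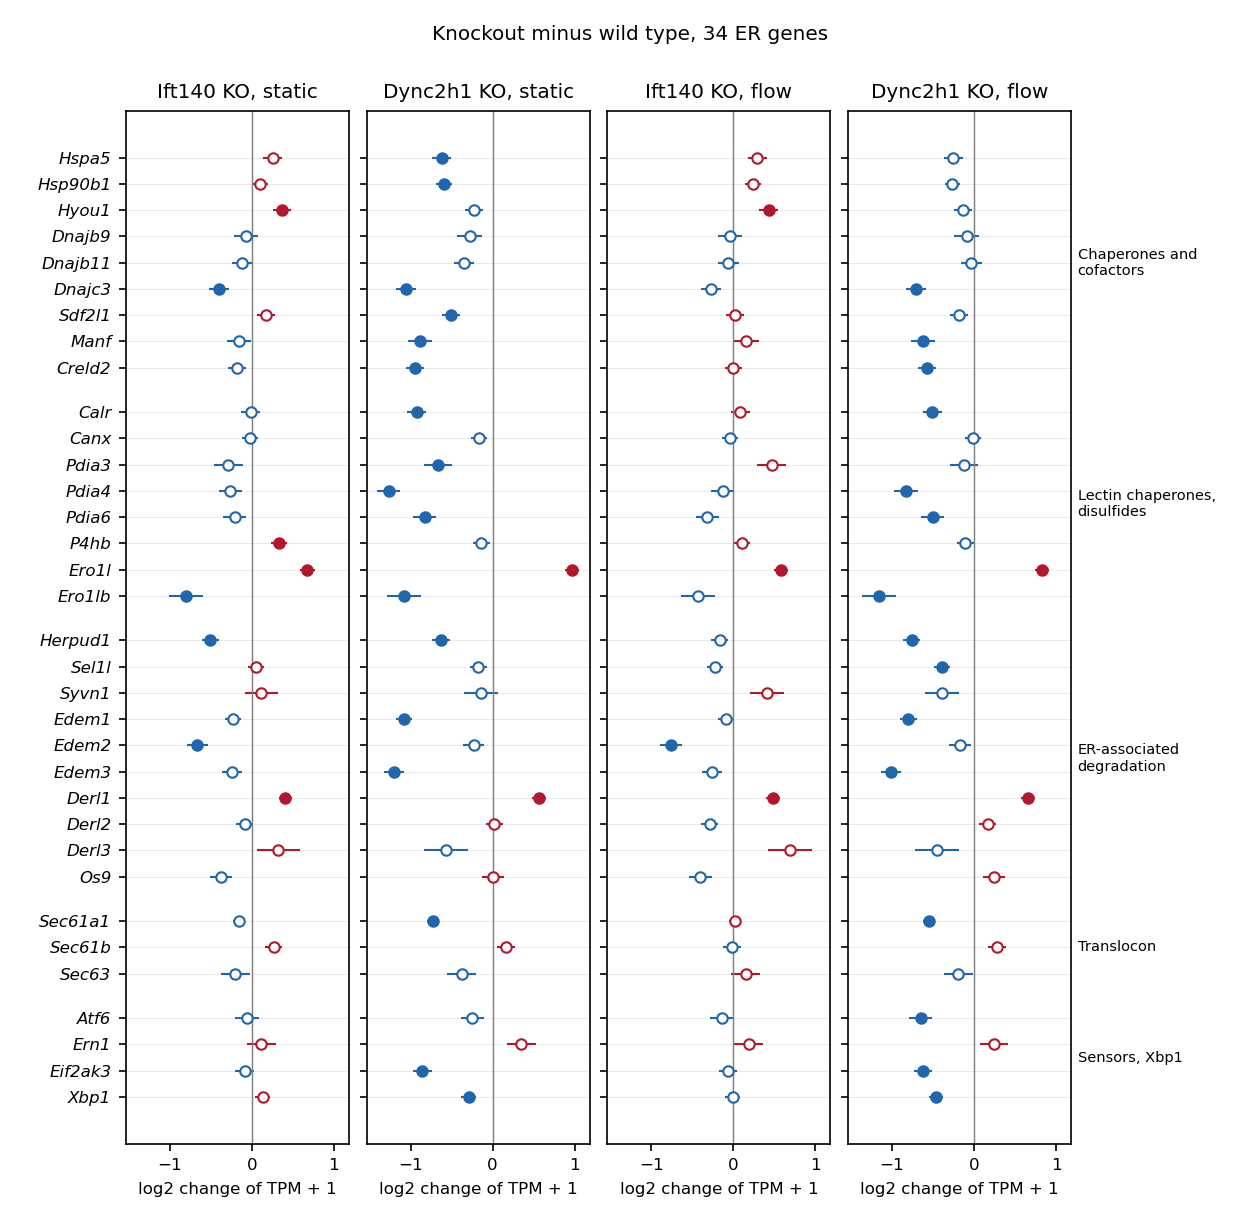
Change of each member in the knockout lines against wild type, static (left pair) and under flow (right pair). The x axis is the log2 change of scaled TPM + 1, bars are SE, filled points passed at an adjusted p under 0.05, and red and blue mark higher and lower in the knockout. The Dync2h1 panels hold 17 and 15 filled blue points, the Ift140 panels 4 and 1.

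In the Ift140 knockout the pattern was mixed. Against wild type 8 members passed in static culture, against 16.5% of all genes (7.76% higher and 8.7% lower): Hyou1, P4hb, Ero1l and Derl1 rose, and Dnajc3, Ero1lb, Herpud1 and Edem2 fell. Under flow 4 passed, against 14.1% (6.04% higher and 8.01% lower): Hyou1, Ero1l and Derl1 rose and Edem2 fell. With a minimum change of 0.5 the counts were 4 and 2, against 10.1% and 8.89% of all genes. When any 1 library of the static comparison was left out 5 members passed. These were 5 of the 8, except without the third Ift140 library, where they were 4 of the 8 and Edem3. In a fit of the flow groups alone none passed. Without the library that stood apart 7 passed under flow: Hyou1 no longer did, and Hspa5, Hsp90b1, Calr and P4hb then rose. All knockout comparisons within a condition share their wild-type libraries.

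The proximal tubule markers moved with the genotypes as well. The sum of Slc34a1, Lrp2, Cubn, Slc5a2 and Aqp1 was 433 to 439.7 TPM in wild-type cells without flow, 83.1 to 89.4 in the static Ift140 knockout and 10.6 to 13.4 in the static Dync2h1 knockout. Under flow it was 377 to 451, 73.3 to 112 and 7.36 to 10.2 TPM. Slc34a1 was listed at 0 in every library, so that the sum is mostly Cubn and Lrp2. Its part in the lower ER gene levels of the Dync2h1 knockout was not tested, and each knockout is a line of its own, so that the genotype and other differences between the lines cannot be told apart.

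Among the 9 chaperones and cofactors, 6 fell in the static Dync2h1 knockout and none rose, where 13.1% of all genes were lower and 13.1% higher. Hspa5 encodes BiP, the HSP70 of the ER lumen and the gene most often read as a marker of ER stress. Static wild-type libraries held 1539.9, 1449 and 1528 TPM and static Dync2h1 libraries 939.9, 978 and 1022, which is a change of -0.62 (SE 0.11, adjusted p = 0.000839). With flow it stood at 1352, 1206 and 1318 TPM in wild type and at 1128, 1076 and 1044 in the Dync2h1 knockout. All Dync2h1 libraries lay below all wild-type libraries in both conditions, but the difference under flow did not pass (-0.25 (SE 0.11, adjusted p = 0.112)). In the Ift140 knockout Hspa5 stood at 1760.3, 1629 and 2012 TPM static and at 1754, 1758 and 1279 under flow. Its difference from wild type under flow was 0.29 (SE 0.11, adjusted p = 0.104) with all libraries and 0.44 (adjusted p = 0.00245) without the library at 1279 TPM. The change under flow within a genotype did not pass in any of the 3, with -0.22 in wild type, -0.18 in the Ift140 knockout (-0.03 without that library) and 0.14 in the Dync2h1 knockout.

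Hsp90b1 encodes GRP94, the HSP90 of the ER. It stood at 849, 894 and 877 TPM in wild-type cells without flow, 1004, 926 and 879 in the Ift140 knockout and 559, 537 and 652 in the Dync2h1 knockout. The 3 Dync2h1 libraries were the lowest, and the gene changed by -0.59 (SE 0.10, adjusted p = 0.000284) against wild type. Under flow the libraries stood at 799, 643 and 741, 915, 876 and 787 and 598, 593 and 621 TPM in the same order of genotypes, where the Dync2h1 difference was -0.26 (SE 0.10, adjusted p = 0.0507) and did not pass.

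Dnajc3 encodes P58IPK, a J protein that works with BiP. Static levels were 74.1, 59.9 and 65.4 TPM in wild type, 51.1, 50.1 and 48.1 in the Ift140 knockout and 32.0, 27.5 and 35.04 in the Dync2h1 knockout. Both knockouts were below every wild-type library, with changes of -0.41 (SE 0.12, adjusted p = 0.0324) and -1.05 (SE 0.12, adjusted p = 1.18e-05). The first call did not hold on the deposited scale (adjusted p = 0.0639), without the filter or without 5 of the 6 libraries in turn. Under flow the values were 61.6, 53.3 and 48.4 TPM, 49.0, 48.5 and 37.5 and 30.1, 33.2 and 35.4, and the Dync2h1 knockout was again lower (-0.71 (SE 0.12, adjusted p = 0.000458)). Manf encodes a small secreted protein retained in the ER that binds BiP. It stood at 184, 174 and 167 TPM in wild-type cells without flow and 102, 98.1 and 83.3 in the static Dync2h1 knockout, with -0.89 (SE 0.15, adjusted p = 0.000344). Under flow it stood at 135, 136 and 131 TPM and 84.6, 80.8 and 96.2, with -0.62 (SE 0.15, adjusted p = 0.00494). The libraries did not overlap in either condition. The Ift140 knockout, at 169, 172 and 132 TPM static and 152, 193 and 115 under flow, did not differ past the threshold.

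Sdf2l1 and Creld2 were the chaperone cofactors that fell under flow in both wild type and the Ift140 knockout. Sdf2l1, part of a complex with BiP and the J protein of Dnajb11, stood at 76.9, 75.2 and 78.3 TPM in wild-type cells without flow and 52.8, 53.1 and 56.9 under flow. Ift140 knockout libraries stood at 77.9, 83.4 and 100.3 TPM static and 61.5, 59.6 and 45.2 under flow. Flow libraries lay below all static libraries in both lines, with changes of -0.49 (SE 0.11, adjusted p = 0.00522) and -0.65 (SE 0.11, adjusted p = 0.000896). Without the library that stood apart the second was -0.51 (adjusted p = 0.00196). In the Dync2h1 knockout it stood at 48.9, 57.9 and 54.6 TPM static, already as low as wild-type cells under flow, and at 48.2, 49.9 and 45.2 under flow. That change, -0.17 (SE 0.11, adjusted p = 0.351), did not pass, and the difference between the Dync2h1 and wild-type responses did not pass either (0.33 (SE 0.16, adjusted p = 0.556)).

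Creld2 encodes an ER-resident protein with disulfide isomerase activity that is induced by ER stress. It fell under flow from 138, 133 and 135 to 91.6, 95.6 and 96.5 TPM in wild type (-0.51 (SE 0.11, adjusted p = 0.00328)). Ift140 knockout libraries stood at 118, 115 and 125 TPM static and 95.98, 112 and 78.7 under flow, with -0.33 (SE 0.11, adjusted p = 0.0491), a call lost without the library that stood apart (-0.20, adjusted p = 0.169) and without 4 of the other 5 libraries in turn. In the Dync2h1 knockout the levels were 63.6, 73.2 and 72.4 TPM static and 59.2, 59.1 and 72.2 under flow. These were the lowest 6 libraries for this gene, and the static difference from wild type was -0.95 (SE 0.11, adjusted p = 1.01e-05).

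The other 3 genes of the group were described by their ranges. Hyou1, an ER member of the HSP110 family, ranged from 63.9 to 146 TPM and rose in the Ift140 knockout, by 0.37 static and 0.43 under flow (adjusted p = 0.033 and 0.0165). The static call was lost when any 1 of its 6 libraries was left out (adjusted p = 0.0522 to 0.103), without the filter and with the deposited scaling (adjusted p = 0.085). The flow value was 0.30 without the library that stood apart (adjusted p = 0.054), and that call did not hold on the deposited scale (adjusted p = 0.0629) or without the second wild-type library. The J protein genes Dnajb9 (5.01 to 8.74 TPM) and Dnajb11 (128 to 212 TPM) passed in none of the comparisons.

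**Figure D4:**
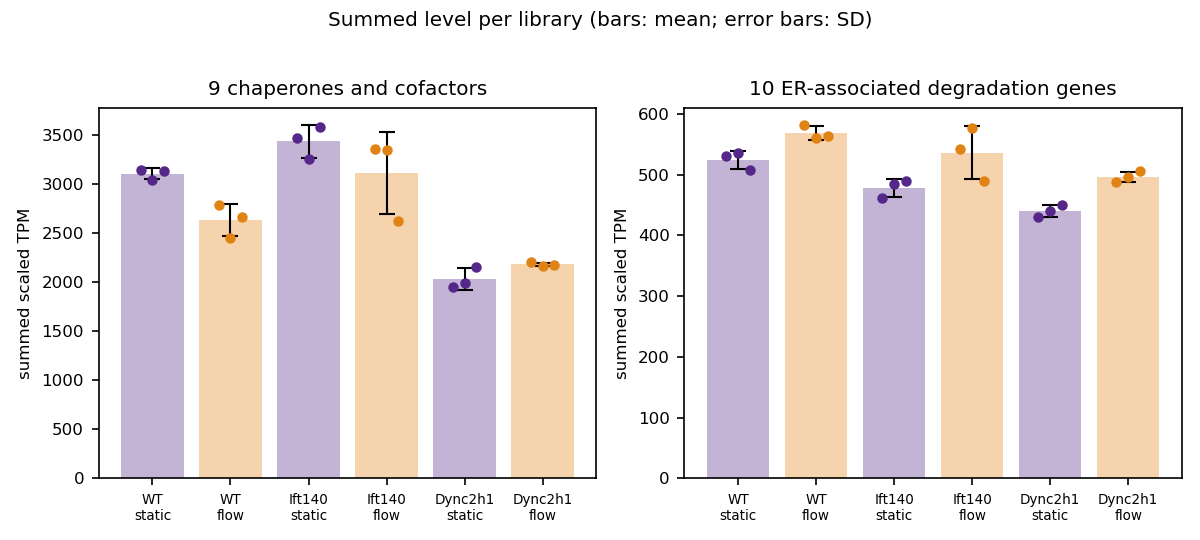
Summed scaled TPM of the 9 chaperones and cofactors (left) and of the 10 genes of ER-associated degradation (right) in each group. Bars are means, error bars SD over 3 libraries, points single libraries, purple static and orange flow. The chaperone sum is 65.4% of wild type in the static Dync2h1 knockout, and the third Ift140 flow library lies below its group mates in both panels.

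Among the 8 lectin chaperone and disulfide genes, 5 fell and 1 rose in the static Dync2h1 knockout, beside the same 13.1% of all genes each way. Calr encodes calreticulin, a soluble lectin chaperone that also binds ER calcium. Wild-type libraries held 718, 705 and 724 TPM static and 582, 503 and 573 under flow, a fall of -0.38 (SE 0.12, adjusted p = 0.0311) in which the libraries did not overlap. The call was lost when any library but the first flow library was left out. In the Dync2h1 knockout Calr stood at 368, 360.0 and 404 TPM static and 369, 392 and 404 under flow. The difference from wild type was -0.92 (SE 0.12, adjusted p = 2.46e-05) static and -0.51 (SE 0.12, adjusted p = 0.00357) under flow. The Ift140 libraries, at 757, 705 and 664 static and 658, 659 and 461 under flow, did not differ from wild type past the threshold with all libraries, with 0.08 under flow and 0.26 (adjusted p = 0.0396) without the library that stood apart. Canx, the membrane-bound counterpart calnexin, ranged from 351 to 475 TPM and passed in no comparison, so that the pair of lectin chaperones differed in the Dync2h1 knockout, at -0.92 and -0.16, although that difference between genes was not tested.

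Pdia4 encodes ERp72, a disulfide isomerase found with BiP and GRP94. Its fall in the Dync2h1 knockout was the largest among the members in static culture. Static wild-type libraries held 386, 340.3 and 348 TPM and static Dync2h1 libraries 146, 150.2 and 148, a change of -1.27 (SE 0.14, adjusted p = 9.41e-06) or 0.413 times the wild-type mean. With flow it stood at 266, 223 and 259.8 TPM in wild type and 143, 137 and 139 in the Dync2h1 knockout (-0.83 (SE 0.14, adjusted p = 0.000461)). Flow itself lowered it in wild type (-0.52 (SE 0.14, adjusted p = 0.0174)). That call was lost without the first static (adjusted p = 0.074) or the second flow library (adjusted p = 0.0812). The Ift140 knockout stood at 300.2, 275 and 321 TPM static and 258, 278 and 164 under flow, with -0.39 (SE 0.14, adjusted p = 0.0783). Without the library at 164 TPM that value was -0.15 (adjusted p = 0.245).

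Pdia6 and Pdia3 encode the isomerases P5 and ERp57, the second a partner of both lectin chaperones. Pdia6 stood at 494, 479.6 and 516 TPM in wild-type cells without flow and 280.0, 259 and 299.6 in the Dync2h1 knockout (-0.83 (SE 0.14, adjusted p = 0.000424)). Under flow the values were 432, 362 and 418 and 277, 277 and 298 TPM (-0.50 (SE 0.14, adjusted p = 0.0138)). The libraries did not overlap. Ift140 knockout libraries held 470.4, 412 and 406 TPM static and 369, 387 and 236 under flow. Pdia3 stood at 190.4, 190.2 and 167 TPM in wild-type cells without flow and 124, 98.9 and 122 in the Dync2h1 knockout (-0.67 (SE 0.17, adjusted p = 0.00921)). The static call was lost on leaving out 1 library (adjusted p = 0.0508), and the difference under flow did not pass, where wild type held 183, 124 and 129 TPM and the Dync2h1 knockout 132, 126 and 136. Pdia3 in the Ift140 knockout stood at 141, 157 and 150.5 TPM static and 153, 188 and 269 under flow, with its highest value in the library that stood apart. P4hb, the founding disulfide isomerase, ranged from 599 to 933 TPM and rose in the static Ift140 knockout (0.33 (SE 0.10, adjusted p = 0.0361)). That call was lost when any 1 of the 6 libraries was left out (adjusted p = 0.0529 to 0.114), with quantile normalisation, without the filter and with the replicate block. Under flow it passed only without the library that stood apart (0.25, adjusted p = 0.015, against 0.10 with it).

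The paralogous oxidase genes Ero1l and Ero1lb, whose products reoxidise the disulfide isomerases, differed from wild type in opposite directions in the knockouts. Ero1l (Ero1a in newer annotation) is also known as a gene induced by low oxygen. It stood at 39.4, 43.2 and 41.4 TPM in wild-type cells without flow, 64.9, 69.9 and 65.4 in the Ift140 knockout and 87.5, 80.0 and 78.4 in the Dync2h1 knockout. Under flow it stood at 44.0, 33.8 and 36.5 TPM, 53.1, 60.2 and 58.6 and 64.7, 69.5 and 70.1. Both knockouts lay above every wild-type library in both conditions. The rise was 0.68 (SE 0.09, adjusted p = 9.37e-05) and 0.97 (SE 0.09, adjusted p = 1.11e-06) static, and 0.58 (SE 0.09, adjusted p = 0.000409) and 0.83 (SE 0.09, adjusted p = 5.33e-06) under flow. The Ift140 value under flow was 0.57 without the library that stood apart. The Ero1lb libraries (Ero1b) held 13.7, 16.7 and 11.6 TPM in wild type without flow, 7.62, 8.31 and 6.76 in the Ift140 knockout and 7.93, 5.86 and 4.64 in the Dync2h1 knockout. Under flow they held 9.32, 9.63 and 7.72, 8.21, 7.04 and 4.27 and 3.10, 4.21 and 3.01 TPM. The static changes were -0.80 (SE 0.21, adjusted p = 0.0155) and -1.08 (SE 0.21, adjusted p = 0.00116), both without overlap, and the first call was lost without the second wild-type or the third Ift140 library. Between flow groups the Dync2h1 knockout was lower (-1.16 (SE 0.21, adjusted p = 0.000625)). The Ift140 difference did not pass (-0.43 (SE 0.21, adjusted p = 0.185), and -0.20 without the library that stood apart), and its libraries overlapped wild type. From static to flow both oxidase genes had changes below 0 in every genotype, with -0.12, -0.22 and -0.26 for Ero1l and -0.59, -0.23 and -0.67 for Ero1lb. Without the library that stood apart the Ift140 values were -0.23 and 0.01. Of these only the Ero1lb change in the Dync2h1 knockout passed (-0.67 (SE 0.21, adjusted p = 0.0355)), a call lost with quantile normalisation, without the filter, with a pseudocount of 5, in a fit of those groups alone and without 4 of the 6 libraries in turn. A predicted pseudogene, Gm18562, is 98% identical to part of Ero1lb and reached up to 2.50 TPM, so that the Ero1lb levels are uncertain.

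Among the 10 genes of ER-associated degradation, Herpud1 was the member that rose under flow in every genotype. It encodes HERP, a membrane protein that organises the degradation complex around the ligase HRD1 and is itself induced by ER stress. In wild-type cells it stood at 66.9, 69.8 and 60.3 TPM static and 120.2, 131 and 131 under flow, 1.941 times the static mean (0.95 (SE 0.11, adjusted p = 1.25e-05)). Ift140 knockout libraries stood at 45.1, 44.8 and 47.5 TPM static and 118, 134 and 92.4 under flow (1.29 (SE 0.11, adjusted p = 6.49e-07)), and without the third flow library the change was 1.44. In the Dync2h1 knockout it went from 42.4, 42.7 and 40.9 to 79.1, 76.2 and 69.7 TPM (0.82 (SE 0.11, adjusted p = 5.67e-05)). Static and flow libraries did not overlap in any genotype. These 3 calls held under every alternative that was run.

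The static level of Herpud1 was lower in both knockouts than in wild type, with -0.51 and -0.63 on the log2 scale (adjusted p = 0.00373 and 0.000365). Under flow the Dync2h1 knockout stayed below wild type (-0.76 (SE 0.11, adjusted p = 6.6e-05)), whereas the Ift140 difference did not pass (-0.16 (SE 0.11, adjusted p = 0.326)) and was -0.02 (adjusted p = 0.922) without the library that stood apart. The flow responses themselves did not differ past the threshold, with differences from wild type of 0.34 (SE 0.15, adjusted p = 0.602) for Ift140 (0.49, adjusted p = 0.0776, without that library) and -0.13 (SE 0.15, adjusted p = 0.891) for Dync2h1. The flow libraries of the Dync2h1 knockout overlapped the static libraries of wild type.

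**Figure D5:**
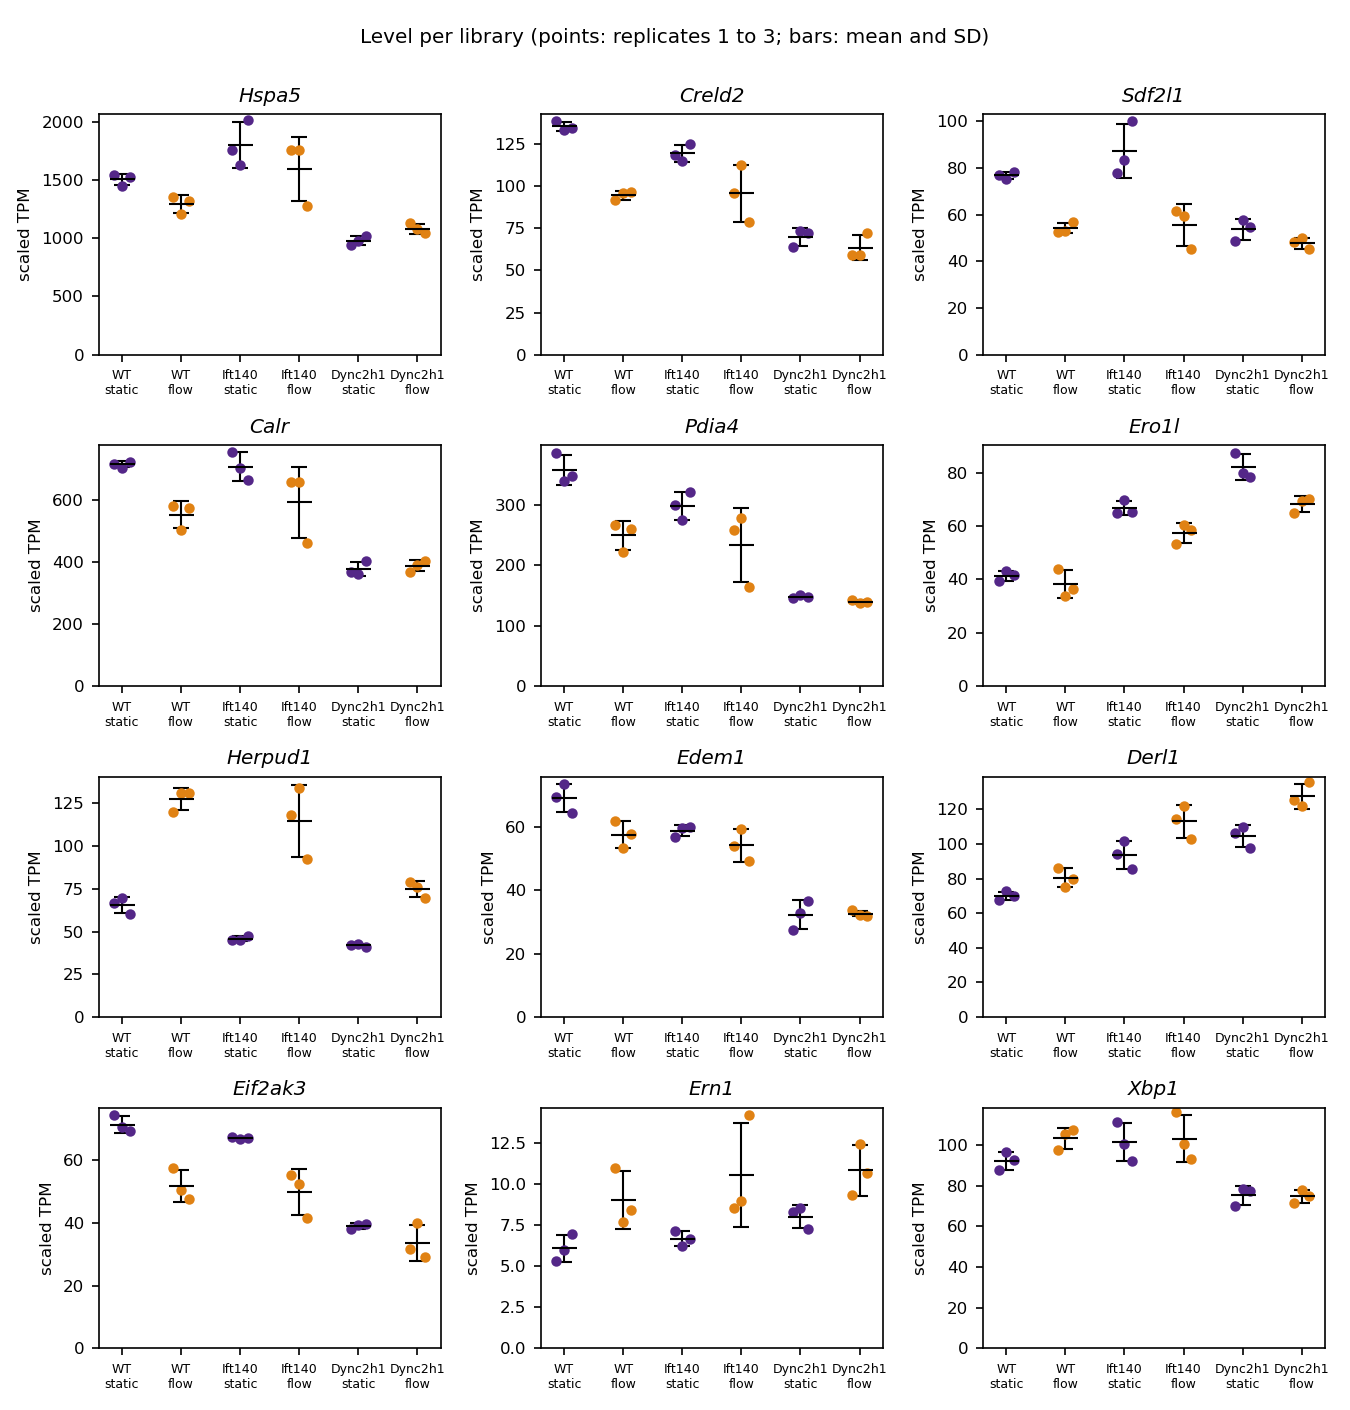
Scaled TPM of 12 members in each of the 18 libraries, with purple points for static and orange for flow, and black bars for the mean and SD of 3 libraries. Each y axis starts at 0. Herpud1 is higher under flow in all 3 genotypes, Creld2 and Edem1 are lowest in the 6 Dync2h1 libraries, and Ero1l is lowest in the 6 wild-type libraries.

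Edem1, Edem2 and Edem3 encode the mannosidase-like proteins that mark misfolded glycoproteins for removal, and they did not move as a family. Edem1 stood at 69.3, 73.3 and 64.4 TPM in wild type without flow and 27.4, 32.8 and 36.5 in the static Dync2h1 knockout (-1.08 (SE 0.10, adjusted p = 9.48e-07)). With flow it stood at 61.8, 53.2 and 57.7 and 33.6, 32.2 and 32.0 TPM (-0.80 (SE 0.10, adjusted p = 2.09e-05)). The Ift140 libraries, at 56.7, 59.5 and 60.0 TPM static and 53.8, 59.4 and 49.2 under flow, did not differ from wild type past the threshold. Edem3 followed the same order, with 72.9, 73.1 and 67.6 TPM in wild-type cells without flow and 33.1, 26.0 and 32.1 in the Dync2h1 knockout (-1.21 (SE 0.12, adjusted p = 2.77e-06)). Under flow the values were 66.8, 67.6 and 62.2 and 28.2, 35.7 and 32.2 TPM (-1.01 (SE 0.12, adjusted p = 1.58e-05)). The static Dync2h1 means were 0.467 times the wild-type mean for Edem1 and 0.427 times for Edem3. In the Ift140 knockout Edem3 held 51.5, 57.9 and 72.8 TPM static and 58.8, 54.0 and 51.0 under flow.

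Edem2 was lower in the other knockout. It stood at 52.0, 41.4 and 45.9 TPM in wild-type cells without flow and 27.0, 31.03 and 28.6 in the static Ift140 knockout (-0.66 (SE 0.13, adjusted p = 0.00283)). Under flow it stood at 35.3, 43.0 and 32.1 TPM in wild type and 17.3, 24.7 and 22.1 in the Ift140 knockout (-0.76 (SE 0.13, adjusted p = 0.00115)). The libraries did not overlap in either condition. The Ift140 value under flow was -0.79 without the library that stood apart. From static to flow it fell within the Ift140 knockout (-0.43 (SE 0.13, adjusted p = 0.0375)), with -0.46 without that library. This call was lost with the deposited scaling, without the filter, in a fit of those groups alone and without 4 of the 6 libraries in turn, with -0.29 at the least. The Dync2h1 knockout, at 36.2, 38.8 and 42.9 TPM static and 32.2, 29.9 and 35.3 under flow, did not differ from wild type past the threshold.

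The derlins, membrane proteins of the degradation channel, also parted. Derl1 stood at 67.9, 72.6 and 70.1 TPM in wild-type cells without flow, 94.4, 101 and 85.4 in the Ift140 knockout and 106, 110.1 and 97.6 in the Dync2h1 knockout. With flow it stood at 86.4, 75.2 and 80.0, 114, 122 and 103 and 125, 122 and 136 TPM. Both knockouts lay above wild type in each condition, by 0.41 (SE 0.08, adjusted p = 0.00367) and 0.57 (SE 0.08, adjusted p = 0.000133) in static culture and by 0.48 (SE 0.08, adjusted p = 0.00124) and 0.66 (SE 0.08, adjusted p = 3.44e-05) under flow. The Ift140 value under flow was 0.55 without the library that stood apart. From static to flow it changed by 0.27 (adjusted p = 0.0429) in the Ift140 knockout, or 0.33 without that library, and by 0.28 (adjusted p = 0.0301) in the Dync2h1 knockout. Both calls were fragile. The first was lost without the filter, with the replicate block, in a fit of those groups alone and without 4 of the 6 libraries in turn, and the second with either other scaling and without 4 of the 6 libraries. Derl3, a low gene, fell in wild type from 5.79, 6.24 and 5.01 to 2.27, 2.03 and 4.53 TPM (-0.81 (SE 0.27, adjusted p = 0.044)), a call lost under most alternatives. It held 5.98, 9.01 and 7.30 TPM static and 3.71, 6.15 and 5.86 under flow in the Ift140 knockout, and 2.82, 3.68 and 4.10 and 2.102, 2.74 and 0.864 in the Dync2h1 knockout. Derl2 ranged from 33.7 to 60.4 TPM and passed in no comparison.

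The core of the degradation ligase changed little. Sel1l, the adaptor of the ligase HRD1, ranged from 45.5 to 75.9 TPM and fell under flow in the Ift140 knockout (-0.31 (SE 0.10, adjusted p = 0.0407), and -0.37 without the library that stood apart). That call was lost with either other scaling, without the filter, in a fit of those groups alone and without 3 of the 6 libraries in turn. Sel1l was also lower in the Dync2h1 knockout than in wild type under flow (-0.39 (SE 0.10, adjusted p = 0.0069)). Syvn1, which encodes HRD1 itself, ranged from 12.5 to 38.9 TPM with its highest value in the library that stood apart. Os9, a lectin that brings glycoproteins to the ligase, ranged from 34.2 to 75.5 TPM. Neither passed in any comparison.

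Of the 3 translocon genes, Sec61a1 changed. It encodes the channel subunit through which new chains enter the ER. It stood at 129, 126 and 130.2 TPM in wild-type cells without flow, 121, 112 and 113 in the Ift140 knockout and 77.4, 79.1 and 75.8 in the Dync2h1 knockout, where it changed by -0.72 (SE 0.07, adjusted p = 2.32e-06). Under flow it stood at 145, 141 and 133, 147, 152 and 127 and 90.4, 95.5 and 98.5 TPM. The 6 Dync2h1 libraries were the lowest of the 18, and the difference under flow was -0.55 (SE 0.07, adjusted p = 3.37e-05). Flow raised it in the Ift140 knockout (0.30 (SE 0.07, adjusted p = 0.00986), and 0.37 without the library that stood apart) and in the Dync2h1 knockout (0.29 (SE 0.07, adjusted p = 0.0105)), the first call lost in a fit of those groups alone and the second with the deposited scaling. Sec61b (44.0 to 71.2 TPM) and Sec63 (22.5 to 53.9 TPM) passed in no comparison. Sec61b is uncertain, since Gm10320 and Gm5870, at 25.1 to 54.3 TPM, are at least 95% identical to parts of it.

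The 3 sensors did not all change in the same direction under flow in wild type, although differences between the genes were not tested. Eif2ak3, which encodes PERK, stood at 74.5, 70.5 and 69.4 TPM in wild-type cells without flow and 57.6, 50.6 and 47.7 under flow (-0.46 (SE 0.11, adjusted p = 0.01)). Ift140 knockout libraries stood at 67.3, 66.8 and 67.1 TPM static and 55.5, 52.6 and 41.7 under flow (-0.43 (SE 0.11, adjusted p = 0.0172)), with -0.31 (adjusted p = 0.0617) without the library that stood apart. Dync2h1 knockout libraries held 38.1, 39.2 and 39.7 TPM static and 31.9, 40.0 and 29.1 under flow. All static libraries of the Dync2h1 line lay below all wild-type libraries, with -0.86 (SE 0.11, adjusted p = 4.63e-05), and the difference under flow was -0.62 (SE 0.11, adjusted p = 0.000752).

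Ern1, which encodes IRE1, was low in every group. It stood at 5.33, 5.99 and 6.97 TPM in wild-type cells without flow and 10.99, 7.67 and 8.43 under flow (0.49 (SE 0.17, adjusted p = 0.0595)). It stood at 7.13, 6.22 and 6.67 TPM static and 8.52, 8.96 and 14.2 under flow in the Ift140 knockout, where it rose (0.56 (SE 0.17, adjusted p = 0.0379)). Without the library at 14.2 TPM that change was 0.35 (adjusted p = 0.143), and the call was also lost without any 1 static library and with the deposited scaling. Dync2h1 knockout libraries held 8.27, 8.55 and 7.23 TPM static and 9.34, 12.5 and 10.7 under flow (0.39 (SE 0.17, adjusted p = 0.145)). The flow libraries lay above the static libraries in every line, but the call in the Ift140 knockout was the 1 that passed.

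Atf6 stood at 23.2, 28.9 and 34.5 TPM in wild-type cells without flow and 36.3, 37.2 and 36.9 under flow (0.36 (SE 0.14, adjusted p = 0.0939)). In the Ift140 knockout it held 28.8, 32.1 and 22.0 TPM static and 33.9, 31.5 and 34.7 under flow. Dync2h1 knockout libraries held 22.4, 24.4 and 25.0 TPM static and 19.9, 23.7 and 26.1 under flow, where it was below wild type (-0.65 (SE 0.14, adjusted p = 0.00271)). Xbp1, whose transcript is spliced by IRE1, stood at 87.7, 96.6 and 92.7 TPM in wild-type cells without flow, 111, 101 and 92.4 in the Ift140 knockout and 69.9, 78.6 and 77.2 in the Dync2h1 knockout. Under flow it held 97.4, 105 and 107, 116, 100.3 and 93.1 and 71.4, 77.9 and 74.9 TPM. It fell in the Dync2h1 knockout, with -0.29 (SE 0.09, adjusted p = 0.0228) static and -0.46 (SE 0.09, adjusted p = 0.00108) under flow. The static call was lost without 3 of the 6 libraries in turn (adjusted p = 0.0598 to 0.101). Values per gene do not show the share of spliced Xbp1, and sensor activity is a matter of protein state that these data do not measure.

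No member passed the test of a different flow response in a knockout than in wild type. None passed for the Ift140 knockout (background 0.198%, with 0.0599% higher), or for the Dync2h1 knockout (background 0.384%). At an unadjusted p under 0.05 there were 2 members for Ift140 (5.88%, against 7.5% of all genes) and 6 for Dync2h1 (17.6%, against 9.2%). The Ift140 count includes the library that stood apart and was not made without it. Leaving that library out, the median Ift140 difference of the members was 0.144, against 0.059 with it, and still no member passed. For Dync2h1 the differences of all 9 chaperones and cofactors were above 0, between 0.09 and 0.38, with a median of 0.326 where all genes had 0.033. With the deposited scaling 8 of the 9 were above 0, with a median of 0.189, and with quantile normalisation the median was 0.211. Calr had the difference 0.42 (SE 0.16, adjusted p = 0.435), Creld2 0.38 (SE 0.15, adjusted p = 0.462) and Hspa5 0.37 (SE 0.16, adjusted p = 0.5). For Ift140 the differences of 8 of the 9 chaperones and cofactors were above 0, with a median of 0.063 where all genes had -0.007. Without the library that stood apart that median was 0.206. The largest difference of a member for Ift140 was that of Pdia3 (0.75 (SE 0.24, adjusted p = 0.393)), which was 0.53 without that library.

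Genes of the PERK and ATF4 arm, which slows translation and raises amino acid supply genes, were mostly higher under flow. The list was chosen with earlier results of these data known, so that its counts are a description. In each of the 3 flow comparisons 12 of these 15 genes rose and 1 fell, where 9.92%, 8.09% and 10.8% of all genes rose in wild type, the Ift140 and the Dync2h1 knockout. The median change was 1.08 in wild type, 1.09 in the Ift140 knockout and 0.87 in the Dync2h1 knockout. Without the library that stood apart, 13 rose and 1 fell in the Ift140 knockout, with a median of 1.18. Chac1, which encodes a glutathione-degrading enzyme, stood at 4.02, 4.94 and 4.40 TPM in wild-type cells held static and at 55.6, 54.3 and 47.2 under flow, a change of 3.29 (SE 0.14, adjusted p = 1.87e-10). Atf4 stood at 133, 141 and 138 TPM static and 355, 383 and 388 under flow, a change of 1.44 (SE 0.08, adjusted p = 6.78e-09). Atf3 rose by 2.49 and the pseudokinase gene Trib3 by 2.07 (adjusted p = 1.54e-09 and 1.34e-08). In static culture 8 of the 15 rose and 3 fell in the Dync2h1 knockout, against 13.1% of all genes each way, and Trib3 was higher by 1.98, Chac1 by 1.36 and Atf4 by 0.85 (adjusted p = 1.26e-08, 3.39e-06 and 1.47e-06). Stc2, a secreted glycoprotein gene, was lower by 3.73 there (adjusted p = 4.85e-07). In that comparison 6 of 9 chaperones and cofactors were lower and 8 of 15 genes of the arm higher. Under flow 4 of the 15 rose and 3 fell in the Dync2h1 knockout, where 16% of all genes were higher and 13.2% lower. The median of the arm in that knockout was 0.074 under flow and 0.469 static. In the static Ift140 knockout 2 rose and 3 fell, where 7.76% of all genes were higher and 8.7% lower. The response to flow of Chac1 and Trib3 was smaller in the Dync2h1 knockout than in wild type, with differences of -1.33 and -1.03 (adjusted p = 0.005 and 0.0136).

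Lists of other genes of the ER and the early secretory pathway are set beside all genes, of which 9.92% rose and 9.47% fell under flow in wild type, 10.8% and 7.38% under flow in the Dync2h1 knockout, and 13.1% each way in the static Dync2h1 knockout. Of 23 further folding genes tested, 4 fell under flow in wild type, among them the collagen prolyl hydroxylase genes P4ha1 (-0.84) and P4ha2 (-0.74), and the glucosidase gene Mogs (-0.45, adjusted p = 0.00316). In the static Dync2h1 knockout 8 fell and 1 rose, with Fkbp14 at -1.91 and the glycoprotein folding sensor gene Uggt1 at -0.64 (adjusted p = 2.08e-05 and 8.95e-05). Against wild type under flow 7 were lower and 5 higher in that line, where 13.2% of all genes were lower and 16% higher. Of 23 further degradation genes, the ubiquitin-conjugating enzyme genes Ube2g2 (0.67) and Ube2j2 (0.43) rose under flow in wild type and none fell. That share of rises is near the 9.92% of all genes. In the static Dync2h1 knockout 5 fell, among them Ubxn4 (-0.87) and Rnf103 (-0.84), and 2 rose. Against wild type under flow the counts were again 5 lower and 2 higher.

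Of 25 genes of translocation, signal peptidase and oligosaccharyltransferase, 9 fell and none rose in the static Dync2h1 knockout, with the oligosaccharyltransferase subunit gene Rpn1 at -0.52 and the signal peptidase gene Sec11c at -0.99 (adjusted p = 0.000962 and 0.00171). Against wild type under flow 5 were lower and 2 higher in that line, and the median was 0.081, beside -0.239 static. Flow raised 6 of the 25 in that line and lowered none, among them Spcs3 (0.34) and Sec11a (0.40), while 1 rose and 1 fell in wild type. The flow comparison of that line depends on the scaling, since the median of all genes moved from 0.0288 to -0.0839 on the deposited scale. The 25 genes were not refitted with the other scalings. Of 25 genes of ER to Golgi transport, 9 fell and none rose in the static Dync2h1 knockout. The coat protein genes Sec24d (-1.33), Sec31a (-0.65) and Sec13 (-0.55) were among them (adjusted p = 7.85e-07, 0.000177 and 0.00242). Against wild type under flow 7 of these 25 were lower and 1 higher. Of 12 other stress sensing genes tested, 1 rose in wild type under flow, Creb3 (0.48), near the 9.92% of all genes, and 3 fell in the static Dync2h1 knockout. Of 18 genes of ER calcium handling, 7 fell and 3 rose there, with the calcium channel genes Itpr1 lower (-1.03) and Itpr2 higher (0.87), and the calcium-binding protein gene Rcn3 lower (-1.64). Under flow the Dync2h1 knockout had 1 of the 12 lower and 2 higher, and 7 of the 18 lower and 4 higher.

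Members with the ER stress element can be set beside those without it as a description. In the static Dync2h1 knockout all 10 members with the element shown above had changes below 0, from -1.08 to -0.14 with a median of -0.724, and 7 of them fell. Of the 19 members with a window and no element, 14 were below 0, the median was -0.293, 8 fell and 1 rose, beside 13.1% of all genes each way. Under flow in wild type the medians were -0.293 and -0.040, with 3 of 10 and 3 of 19 lower, beside 9.47% of all genes. For the Ift140 knockout against wild type the order was the other way, with medians of -0.020 and -0.089 static and 0.043 and -0.061 under flow (0.147 and -0.012 without the library that stood apart). Pdia4 and Edem3, with the deepest falls, had no match in the window searched, and Canx and Syvn1, which hold one, did not pass in any comparison. Herpud1, which rose under flow, was the single member with the ATF4 composite core, and 4.51% of genes in the whole table held that core. No relation between motif and change was tested.

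Across the 18 libraries the genes whose log2 values followed Hspa5 most closely, of 9581 with a mean of at least 10 TPM, were Calr-ps (Pearson r = 0.968), Wrb (0.957), Gm15720 (0.93), Gm6206 (0.929) and Hsp90b1 (0.927). Calr-ps, Gm15720 and Gm6206 are annotated as processed pseudogenes, whose reads can be hard to tell from those of their parent genes. Calr-ps bears the name of the member Calr. The search for copies at least 95% identical listed none for Calr, so that reads shared between these genes were not tested. Of the 29 other members with such a mean, 8 had r above 0.8, among them Calr, Pdia4, P4hb, Creld2, Edem1, Manf and Eif2ak3, against 1.68% of all these genes. The members with r below 0 were 6: Os9, Derl2, Edem2, Ero1l, Derl1 and Sec61b. The libraries share 6 groups, so that these values mostly describe differences between groups. Within groups r was 0.431 for Hsp90b1, 0.697 for Calr and 0.928 for Pdia4. Of the 6 members with r below 0 across libraries, Os9 stood at 0.833, Derl2 at 0.666, Sec61b at 0.609 and Derl1 at 0.137 within groups. The within-group r was below 0 for Syvn1 (-0.807), Pdia3 (-0.462), Atf6 (-0.436), Hyou1 (-0.431), Sec63 (-0.248), Edem2 (-0.181) and Ero1l (-0.129). These values include the library that stood apart, and r was not computed without it.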

How the data were processed

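RNA was sequenced from 18 libraries of IMCD3 cells, 3 in each of 6 groups, grouped by their titles. Per the submitters' processing notes, FastQC 0.11.5, Bowtie2 2.1.0 and RSEM 1.2.31 were used, with builds mm10 and GRCm38.p5 named; the annotation release is not given in the sources used here. The authors deposited TPM, 1 value per gene name and library, and a row that repeats the total of each library was left out. Since TPM keeps no sequencing depth, the precision of single values is known only from the spread of libraries.

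Libraries were rescaled by an unweighted trimmed mean of log ratios, with 30% of ratios and 5% of abundances trimmed at each end. The 16686 genes that reached 1 scaled TPM in 3 or more libraries were tested: log2(scaled TPM + 1) was fitted with limma 3.58.1 (R 4.3.3) as 6 group means with 12 residual degrees of freedom, a mean-variance trend and Benjamini-Hochberg adjustment. The method was tested on simulated data. Count-based tests were not used, since the values are not counts.

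The members and all gene lists were chosen with earlier results of these data known. Values of every library are printed for members that passed with a log2 change of at least 0.5 in a flow or knockout comparison and for the sensors and Xbp1; other members are given by range, and up to 4 passing genes are named from each context list. Counts of lists carry no test. Gene positions, gene types and near-identical copies (at least 95% over 200 bases) come from GENCODE on GRCm38, start site windows from RefSeq. Alternatives changed scaling, filter, pseudocount, libraries, minimum change and the replicate block. Protein sequences were not analysed here.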

Additional observations from a re-analysis of the deposited data

How the results depend on the processing

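The 68 called changes of single members kept their direction in all 884 values under the alternatives other than the minimum change, and 113 of these values no longer passed; the cause of those losses was not tested. Calls that held under every one of these alternatives were 4 of 7 for flow in wild type (Sdf2l1, Creld2, Herpud1, Eif2ak3), Herpud1 alone in each knockout under flow, 4 of 8 for the static Ift140 knockout, 0 of 4 for the Ift140 knockout under flow, 17 of 19 for the static Dync2h1 knockout (all but Pdia3 and Xbp1) and 16 of 17 for it under flow (all but Pdia6).

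For flow in wild type 4 members passed with a minimum change of 0.5, against 12.1% of all genes, and 4 to 8 when 1 library was left out. For flow in the Ift140 knockout the count was 4 without the filter, 1 in a fit of those groups alone and 3 with the minimum change, with 4 to 9 when 1 library was left out. For flow in the Dync2h1 knockout it was 2 with the minimum change, against 10.7% of all genes, and 2 to 6 when 1 library was left out. The static Ift140 knockout gave 5 without the filter, 4 with the minimum change and 5 without any 1 library. Under flow it gave 0 in a fit of those groups alone, 2 with the minimum change and 4 to 7 when 1 library was left out. The Dync2h1 knockout gave 18 to 19 static and 16 to 18 under flow, and the 2 response differences gave 0 throughout, when 1 library was left out.

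The deposited scaling moved the median of all genes from 0.0288 to -0.0839 for flow in the Dync2h1 knockout, from 0.0332 to -0.0867 for the Dync2h1 response difference and from 0.0300 to -0.0993 for the Dync2h1 knockout under flow. Same-numbered libraries did not deviate together (correlations from -0.246 to 0.301, against -0.321 to 0.304 for other pairs). With the replicate block 8, 6 and 4 members passed for flow in wild type, the Ift140 and the Dync2h1 knockout, 7 and 19 for the static knockouts, 4 and 17 under flow, and 0 for both response differences. The depth of these libraries is unknown.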
